A study of Mus musculus with 12 samples.

Results

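Csf1, Ccl2, Cxcl2 and Mif encode 4 secreted proteins that attract or sustain macrophages and other myeloid cells. They were taken by name, through the Ensembl mouse gene IDs of the count table matched to symbols. All 4 were among the 9073 genes of the table, as Csf1 (ENSMUSG00000014599), Ccl2 (ENSMUSG00000035385), Cxcl2 (ENSMUSG00000058427) and Mif (ENSMUSG00000033307). Of these, 3 passed the filter on low counts, and Cxcl2 did not.

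CSF1 (macrophage colony-stimulating factor) binds the receptor CSF1R and keeps macrophages and microglia alive and dividing, and injured sensory neurons are known to make it. CCL2 (monocyte chemoattractant protein) draws monocytes through the receptor CCR2. CXCL2 acts through CXCR2 and is best known for attracting neutrophils. MIF (macrophage migration inhibitory factor) is held ready-made in the cytoplasm of many cell types, and after release it binds CD74 together with CXCR2 or CXCR4.

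All samples were adult dorsal root ganglion (DRG) neuron RNA from mice of the genotype RPL22HA+/+;Advillin-Cre+. In these mice Cre recombinase, driven in sensory neurons by Advillin, turns on a haemagglutinin (HA) tag on ribosomal protein L22. The neurons had received AAV-control or AAV-shGpr151, where AAV is adeno-associated virus and the second carries a short hairpin RNA against the receptor gene Gpr151. From each treatment there were 3 columns of Input, the lysate RNA, and 3 of IP, the RNA recovered with anti-HA antibody. The 4 groups are called Input control and Input shGpr151, and IP control with IP shGpr151. According to the series design, the mice had a preconditioning sciatic nerve injury and the neurons were cultured, but the extraction protocol speaks of fresh ganglia. The sources used here give no age, no promoter for the hairpin and no word on pooling of animals. Input is a bulk lysate, so fewer cells of a type and less RNA per cell cannot be told apart.

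Column totals ran from 1094523 to 1415444 counts in IP and from 2049114 to 2111544 in Input. Within a group the columns differed by little more than counting noise, with chi-square per degree of freedom of 0.98 to 1.05 in 12 pairs, against 1.80 to 156 in 54 pairs between groups. Each group was therefore summed and treated as 1 library, which leaves every comparison without replication. Gpr151, the target of the hairpin, had 98 to 109 counts per column in IP control against 65 to 96 in IP shGpr151, and 6 to 10 against 4 to 5 in Input. Its log2 ratio of shGpr151 to control was 0.00 (-0.25 to 0.24) in IP and -0.86 (-1.96 to 0.17) in Input, so a lower level was not shown, and libraries are named by their labels throughout. Intervals are 95% and cover counting error only.

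A gene was called where edgeR's quasi-likelihood test over the 12 columns passed an adjusted p threshold of 0.05. Because the columns are near copies, such a call separates these libraries and not the treatments, so no p-value of a gene is given. As a second mark, a gene was counted as past 1.5-fold where its ratio exceeded that size and its counting interval lay beyond 0. Ratios use library sizes from the trimmed mean of M values (TMM), which centre the bulk of the genes. CPM, a count scaled to the size of its library in the usual way, is given on library totals unless TMM is named.

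Csf1 was a low-count transcript with overlapping levels in the libraries labelled shGpr151 and control. In IP, the control columns gave 57, 67 and 69 counts, against 56, 51 and 63 for shGpr151. In Input they held 22, 14 and 26 in control, and 10, 28 and 26 in shGpr151. The ranges of the columns overlapped between treatments in both RNA fractions. Summed, Csf1 stood at 45.5 CPM (39.3 to 52.3) in IP control and 51.7 CPM (44.3 to 60.1) in IP shGpr151, and at 9.79 CPM (7.51 to 12.5) and 10.4 CPM (8.02 to 13.3) in the corresponding Input libraries. Neighbouring values in that order, the IP pair and the Input pair, had overlapping intervals.

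Ccl2 differed in opposite directions in the 2 RNA fractions. Its columns held 334, 334 and 299 counts in Input control and 417, 395 and 450 in Input shGpr151. In IP they held 244, 220 and 266 counts in control and only 165, 146 and 141 in shGpr151. In CPM, on library totals and on TMM sizes, the columns of the libraries labelled shGpr151 were higher in Input and lower in IP, without overlap. Columns of a group are near copies, so this separates the libraries and not the treatments. The share of all genes with such a gap was not counted. The sums corresponded to 205 CPM (194 to 217) in Input shGpr151, 172 CPM (160 to 185) in IP control, 153 CPM (143 to 163) in Input control and 138 CPM (125 to 151) in IP shGpr151. The intervals of the neighbours IP control and Input control overlapped, as did those of Input control and IP shGpr151.

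Mif followed the order Input shGpr151, Input control, IP control, IP shGpr151. Its columns held 3414, 3458 and 3486 counts in Input control and 3847, 3800 and 3867 in Input shGpr151. The IP columns held 1575, 1556 and 1526 counts in control and 1122, 1099 and 1160 in shGpr151. In CPM on either scale no columns overlapped between treatments, with the same limit as for Ccl2, and the Input columns were the higher ones. The sums were 1873 CPM (1839 to 1907), 1636 CPM (1604 to 1667), 1097 CPM (1066 to 1129) and 1029 CPM (995 to 1064) in the order given, and the intervals of neighbours did not overlap. Mif has processed pseudogenes, and no source used here says how reads shared with such copies were counted, so its counts are uncertain to that extent.

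Cxcl2 was at the edge of detection. Its columns held 4, 2 and 3 counts in Input control, 2, 1 and 1 in Input shGpr151, 2, 1 and 4 in the control IP, and 1 in each column of IP shGpr151. The table lists no value under 1, so the last of these is the lowest that a listed gene can have. Levels ran from 0.651 CPM (0.177 to 1.67) in Input shGpr151 to 1.65 CPM (0.663 to 3.40) in IP control, with overlapping intervals in all 4 libraries on this scale, and no difference between treatments was detectable at this depth.

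**Figure D1:**
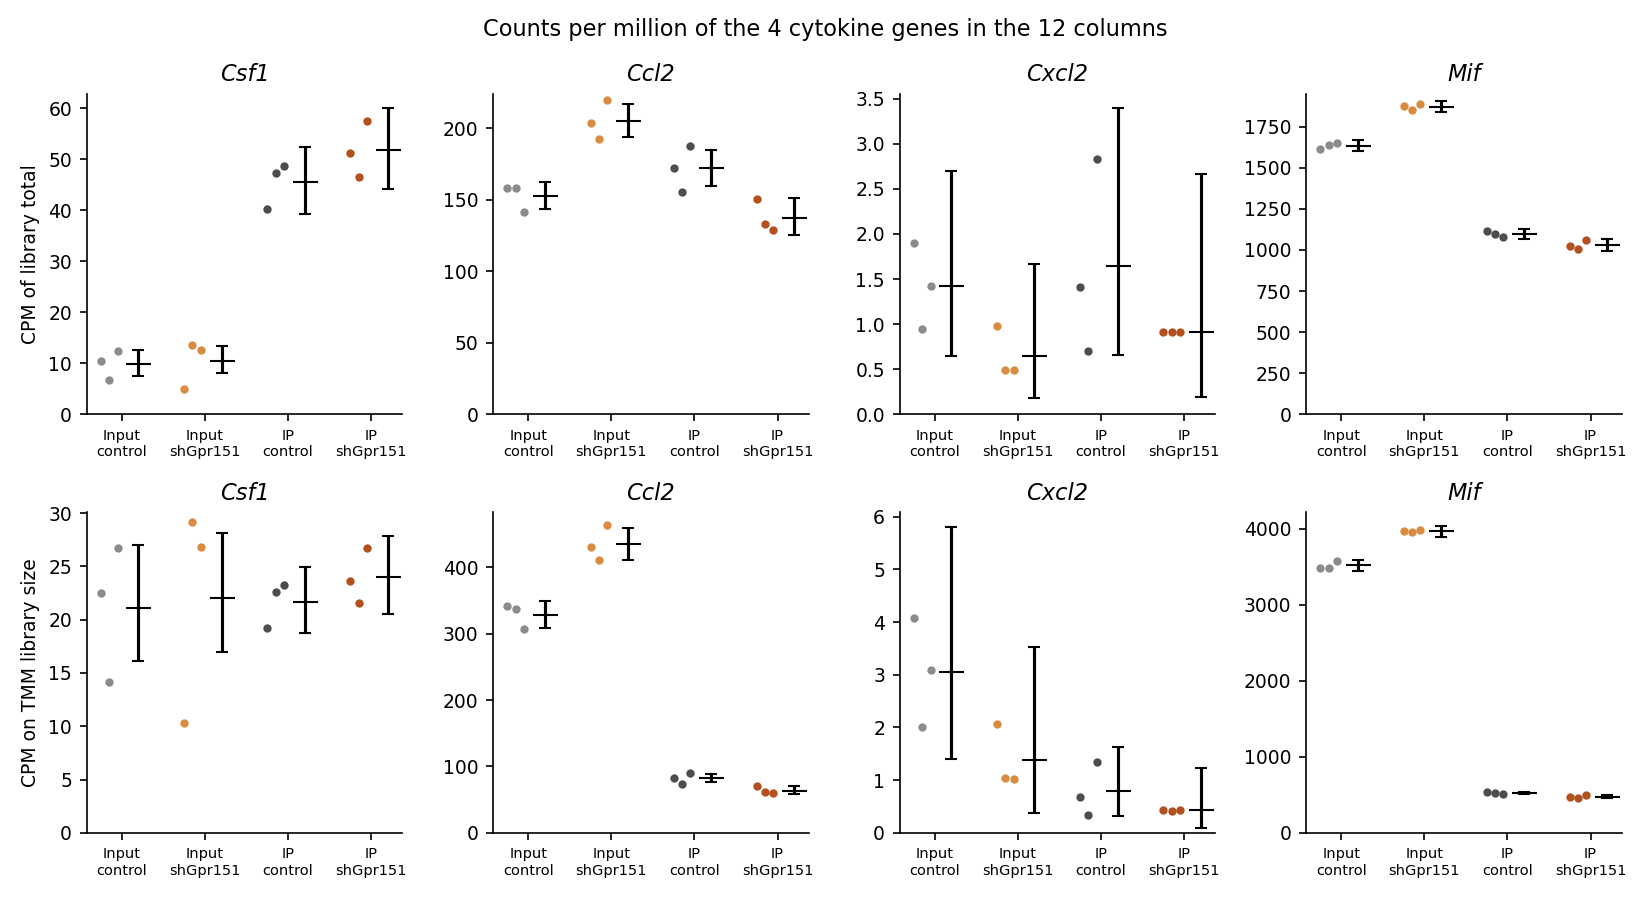
Levels (CPM) of Csf1, Ccl2, Cxcl2 and Mif in the 12 columns (dots) and in each summed library (black dash with a 95% Poisson interval), on library totals (upper row) and on TMM library sizes (lower row). On both scales Ccl2 and Mif were higher in Input shGpr151 and lower in IP shGpr151 than in their controls. The order of IP and Input changed with the scale for Cxcl2 and, in control, for Ccl2. Csf1 was higher in IP on library totals and near level between IP and Input on TMM sizes.

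The comparison of IP shGpr151 with IP control asks which ribosome-bound messages of these neurons differ with the hairpin. Ccl2 and Mif were lower in the library labelled shGpr151, and Csf1 was not called. The log2 ratio of Ccl2 was -0.36 (-0.54 to -0.19), that of Mif was -0.135 (-0.20 to -0.07), and that of Csf1 was 0.14 (-0.16 to 0.45). For Csf1 this interval runs from 0.894-fold to 1.36-fold, so larger shifts in either direction lie outside it. Calls were made for 2 of the 3 tested members, both lower, against 8.69% of the 8312 tested genes in either direction. None of the 3 was past 1.5-fold, where 2.29% of all tested genes stood higher and 1.08% lower. The split of all calls depended on the scale, with 309 higher and 413 lower on TMM sizes and 421 higher and 260 lower on library totals. On library totals the ratio of Mif was -0.092 and no longer called, while that of Ccl2 stayed called, at -0.32.

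In Input, which asks the same question of the whole lysate, Ccl2 and Mif were higher in the library labelled shGpr151. Their log2 ratios were 0.40 (0.28 to 0.53) for Ccl2 and 0.17 (0.135 to 0.21) for Mif. Csf1 had 0.07 (-0.46 to 0.595), which leaves any change between 0.727-fold and 1.51-fold possible at 62 and 64 counts. Again 2 of the 3 tested members were called, both higher, and the background was 17.0% of tested genes in either direction. No member was past 1.5-fold, with 4.32% of tested genes higher and 4.78% lower by that mark. Cxcl2 had ratios of -1.15 (-3.30 to 0.69) in Input and -0.895 (-3.48 to 1.24) in IP, untested.

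The difference between the 2 hairpin ratios, that in IP minus that in Input, compares the fractions directly. It was -0.77 (-0.98 to -0.56) for Ccl2 and -0.31 (-0.38 to -0.23) for Mif, both called lower, and 0.08 (-0.51 to 0.66) for Csf1, not called. Among all tested genes 14.2% were called in this difference. Ccl2 was also past 1.5-fold lower, where 7.13% of tested genes stood, and 8.75% stood past it in the higher direction. The joint pattern of a lower call in IP with a higher call in Input held for Ccl2 and Mif and for 207 tested genes in all (2.49%), and the reverse pattern for 65. Ccl2 ranked at percentile 7.68 of all tested genes in this difference and Mif at 26.7. Ccl2 differed from Csf1 in it by -0.85 (-1.47 to -0.23), and from Mif by -0.46 (-0.68 to -0.24). When each group was taken as 1 library and the spread between animals was set by assumption to 10% (the BCV, or biological coefficient of variation), neither Ccl2 nor Mif was called in any of the comparisons of shGpr151 with control.

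**Figure D2:**
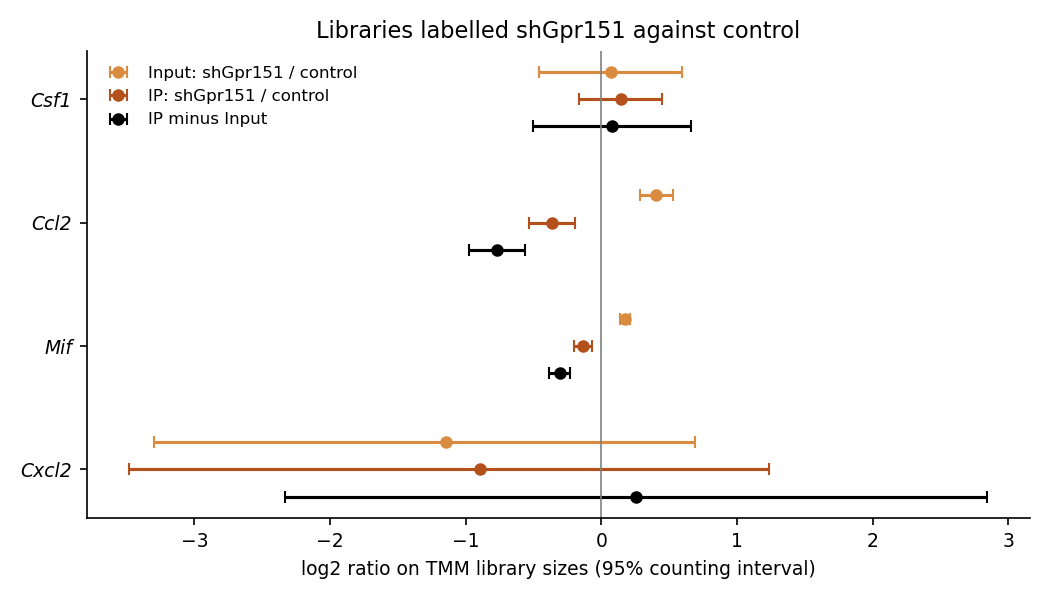
Log2 ratios of shGpr151 to control in Input (light orange) and IP (dark orange), and the ratio in IP minus that in Input (black), for the 4 genes on TMM library sizes, with 95% counting intervals. Ccl2 and Mif lie right of 0 in Input and left of 0 in IP, Csf1 spans 0 in all 3, and the intervals of Cxcl2 are wider than those of the other genes.

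The comparison of IP with Input describes how far each message was recovered with tagged ribosomes of sensory neurons. Relative to the bulk of genes, Ccl2 and Mif were under-recovered and Csf1 stood in the middle. In control the log2 ratio of IP to Input was -2.00 (-2.14 to -1.86) for Ccl2, -2.75 (-2.80 to -2.70) for Mif, 0.04 (-0.38 to 0.48) for Csf1 and -1.96 (-3.62 to -0.37) for the untested Cxcl2. In the libraries labelled shGpr151 it was -2.77 (-2.93 to -2.61) for Ccl2, -3.06 (-3.11 to -3.00) for Mif, 0.12 (-0.30 to 0.56) for Csf1 and -1.71 (-4.48 to 0.86) for Cxcl2. These values carry a shift of -2.17 in control and -2.19 in shGpr151 from library totals to TMM sizes. On library totals Csf1 was higher in IP, at 2.22 in control and 2.31 in shGpr151, Mif was lower, at -0.58 and -0.86, and Ccl2 changed sign in control, with 0.17 there and -0.58 in shGpr151. Cxcl2 changed sign in both treatments, with 0.21 (-1.445 to 1.81) and 0.49 (-2.28 to 3.05) on library totals. The order of genes does not depend on that shift. Csf1 stood at percentile 49.6 of the tested genes in control, Ccl2 at 14.3 and Mif at 9.96, and in shGpr151 at 50.4, 10.3 and 8.79. Ccl2 and Mif were called lower and past 1.5-fold on TMM sizes in both treatments. In control 65.3% of tested genes were called, 30.5% stood past 1.5-fold higher and 30.7% lower, and in shGpr151 these shares were 66.6%, 32.1% and 31.5%, so calls of this kind were common.

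Markers of cell types give a second yardstick for these ratios, on the same TMM scale. Of 20 sensory neuron markers, 19 were tested, and in control their ratios ran from 0.375 to 3.63 with a median of 1.82. All 19 lay above each of the 4 genes in control, and in shGpr151 all lay above Ccl2, Mif and Cxcl2 and 18 above Csf1. The interval of Csf1 in control reached past the lowest of them. Of 20 macrophage markers, 13 were in the table, with a median ratio of -1.37 in control, and 10 of these 13 lay above Ccl2 and above Mif in either treatment. Adgre1, Cd14, Itgam, Mrc1, Cd163, Ptprc and Cd74 were not among the listed genes, while Tyrobp, Lyz2 and Fcer1g had 896, 697 and 777 counts in Input control. Fibroblast markers had a median of 0.02, satellite glia markers -0.14, Schwann cell markers -0.16 and endothelial and mural markers -0.23. A recovery with tagged neuronal ribosomes like that of neuron markers was thus not seen for Ccl2 or Mif. Cxcl2 had too few counts to be placed. Its interval in shGpr151 reached 0.86, past the lowest neuron marker there, at 0.097. Transcript length was not analysed.

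**Figure D3:**
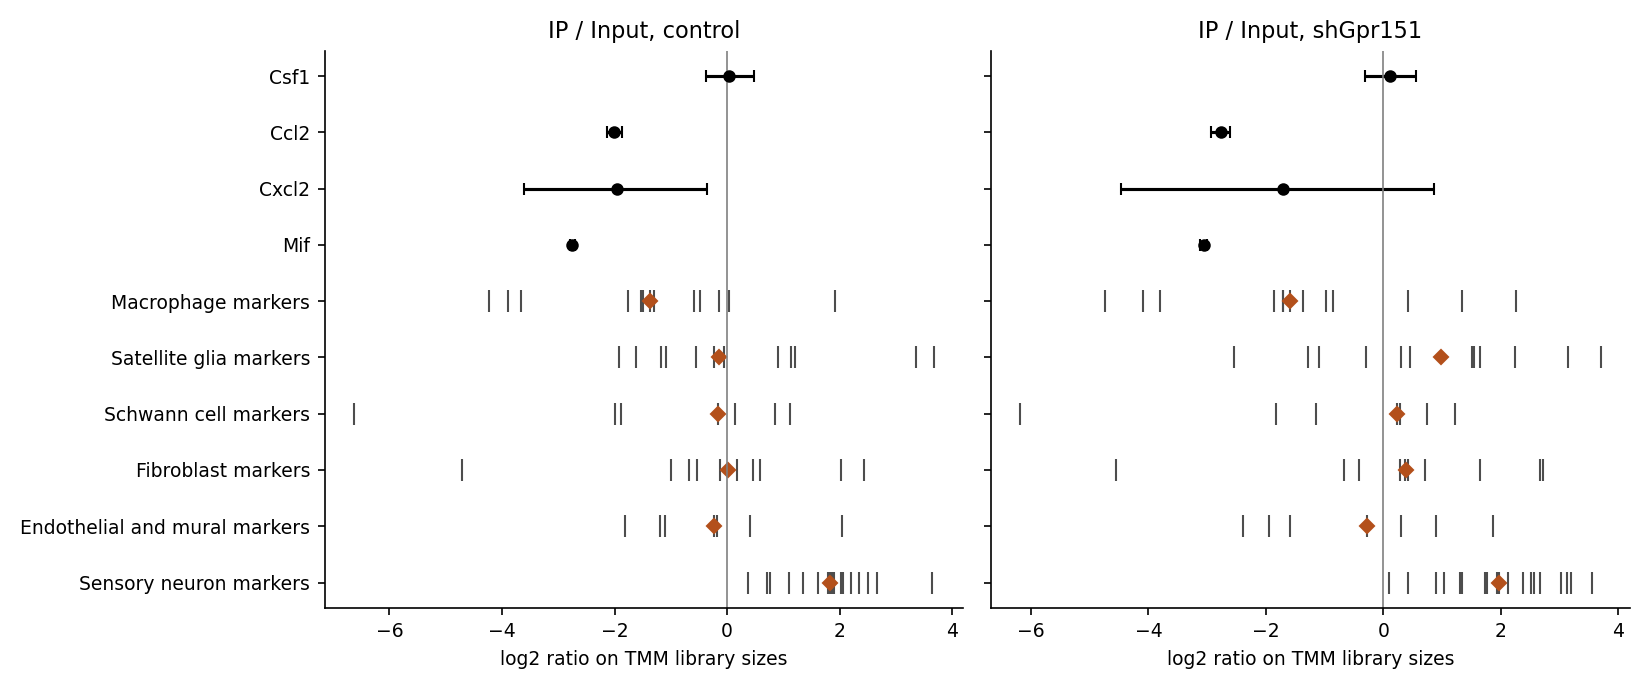
Log2 ratios of IP to Input on TMM library sizes in control (left) and in the libraries labelled shGpr151 (right), for the 4 genes (black dots with 95% counting intervals) and for the tested markers of 6 cell types (ticks, with the median of each list as a diamond). Ccl2 and Mif lie left of every sensory neuron marker in both treatments, and Csf1 lies near 0.

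Some of the same marker lists also moved between treatments. Summed macrophage markers ran over columns from 467 to 485 CPM in Input control and from 482 to 514 CPM in Input shGpr151, and from 555 to 591 CPM in IP control and 583 to 616 CPM in IP shGpr151. Their median log2 ratio of shGpr151 to control was 0.24 in Input, with 0 of 13 called, and -0.01 in IP, with only C1qa called, higher. The counts of called markers that follow stand beside 17.0% of all tested genes called in Input and 8.69% in IP. In Input, 4 of 10 tested fibroblast markers were called lower, namely Col1a2, Thy1, Fn1 and Vim. In IP 4 different ones were called higher, namely Lum, Col3a1, Col1a1 and Mgp, so no single fibroblast marker had the reverse calls of Ccl2. Endothelial and mural markers had 3 of 7 called higher in Input, with a median of 0.44, and 0 called in IP, with a median of -0.12. The 3 were the contractile genes Tagln, Myl9 and Acta2, while Cdh5, Egfl7, Rgs5 and Pdgfrb were not called. Of 12 satellite glia markers 1 was called higher and 4 lower in Input (median -0.325), and 3 higher and 2 lower in IP (median 0.08). Fabp7 among them had the same pair of calls as Ccl2, higher in Input at 0.37 and lower in IP at -0.26. Of 7 Schwann cell markers 2 were called lower in Input (median -0.29) and 1 lower in IP (median 0.03). Sensory neuron markers had 2 of 19 called higher and 3 lower in Input, with a median of -0.13, and 2 higher and 5 lower in IP, with a median of 0.04. Calca and Uchl1 had the calls of Ccl2, higher in Input (0.19 and 0.44) and lower in IP (-0.275 and -0.16). Prph had the reverse calls, at -0.43 in Input and 0.10 in IP. Over all tested genes 2.49% had the pair of calls of Ccl2. The part of any of these cells in the Ccl2 and Mif counts was not tested.

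Ccl2 lies in a run of CC chemokine genes, followed by Ccl7, Ccl11, Ccl12 and Ccl8 with 0 other protein-coding genes between neighbours in RefSeq's table for the assembly GRCm38.p6. These genes encode monocyte and eosinophil attractants, and none of Ccl7, Ccl8 and Ccl11 showed the opposite pair of ratios. Ccl7 had 770 and 890 counts in Input control and shGpr151 and 469 and 414 in IP, with log2 ratios of 0.23 (0.09 to 0.37), called higher, and 0.15 (-0.05 to 0.34), not called. Ccl11, the eosinophil attractant eotaxin, had 0.19 (-0.07 to 0.45) in Input and 0.05 (-0.15 to 0.25) in IP. Ccl8 had 0.01 (-0.30 to 0.33) and 0.02 (-0.29 to 0.33), and Ccl12, with too few counts to be tested, 0.09 (-0.86 to 1.05) and -0.16 (-2.16 to 1.71). The IP ratio of Ccl2 was below that of Ccl7 by -0.51 (-0.77 to -0.26), of Ccl11 by -0.41 (-0.67 to -0.15) and of Ccl8 by -0.39 (-0.73 to -0.04). In Input the differences from Ccl7 and Ccl11 spanned 0, at 0.175 (-0.01 to 0.36) and 0.22 (-0.07 to 0.50), and that from Ccl8 was 0.39 (0.06 to 0.72). Within each library, Ccl2 counts per Ccl7 count were 1.26 in Input control, 1.42 in Input shGpr151, 1.56 in IP control and 1.09 in IP shGpr151. These ratios within a library need no scaling, and these pairs of genes were chosen after their values were seen.

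**Figure D4:**
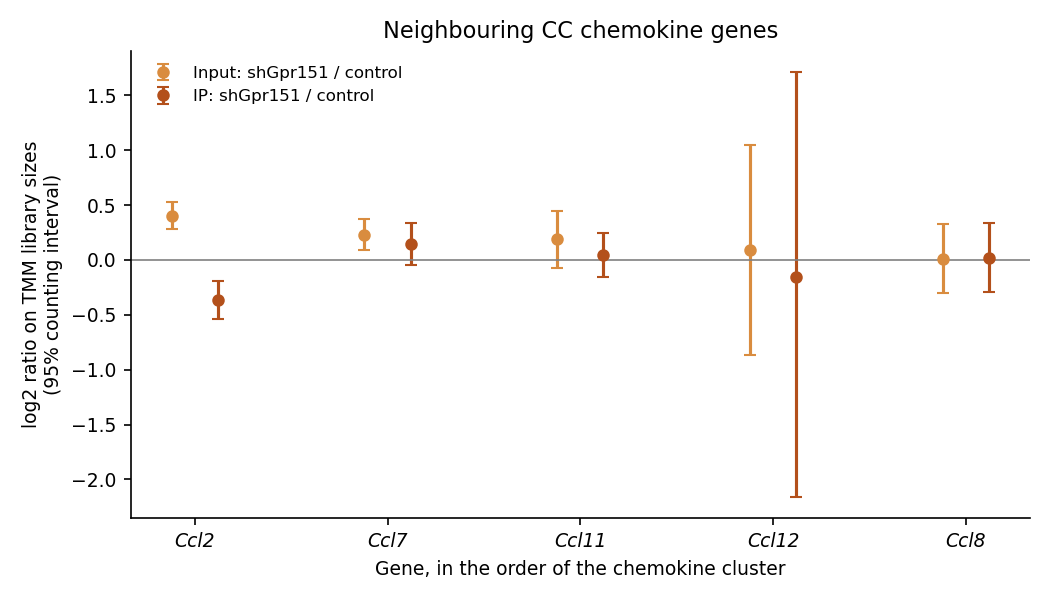
Log2 ratios of shGpr151 to control in Input (light orange) and IP (dark orange) for Ccl2 and the 4 CC chemokine genes that follow it, on TMM library sizes with 95% counting intervals. Input and IP separate for Ccl2 and overlap for Ccl7, Ccl11, Ccl12 and Ccl8.

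Over all CC chemokines, 11 of 19 listed ligands were in the table and 7 were tested. In IP, Ccl2 was the 1 called (lower), beside 8.69% of all tested genes in either direction, and the list median was 0.02 beside 0.00 for all tested genes. In Input, where 17.0% of all tested genes were called, 3 were called, all higher, namely Ccl2, Ccl7 and Ccl6 at 0.61 (0.40 to 0.83), with a list median of 0.19 beside -0.07 for all tested genes. All 7 were called lower in IP than in Input on TMM sizes in both treatments, beside 2728 of 8312 tested genes in control and 2739 in shGpr151, and on library totals the list median was 0.34 in control and -0.02 in shGpr151. The remaining tested ligands, Ccl4 and Ccl27a, had ratios of shGpr151 to control of -0.13 and -0.07 in Input and -0.94 and -0.11 in IP, not called. Ccl3, Ccl9 and Ccl25 had too few counts to be tested.

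Cxcl2 belongs to the CXC chemokines, of which, with the CX3C and C ligands, 8 of 17 were in the table and 4 were tested. None of these 4 was called between treatments. Cxcl10, an interferon-induced ligand of CXCR3, had 64 and 88 counts in Input control and shGpr151 and 142 and 97 in IP, ratios of 0.48 (0.00 to 0.97) and -0.22 (-0.61 to 0.16). Cxcl1, the gene next to Cxcl2 and like it a ligand of CXCR2, had 13 and 30 counts in Input and 21 and 11 in IP, too few to be tested. Its ratios were 1.23 (0.24 to 2.29) in Input and -0.61 (-1.80 to 0.51) in IP, and their difference was -1.83 (-3.24 to -0.42). Cxcl12, which guides cells through CXCR4, had -0.19 in Input and 0.25 in IP, Cxcl14 had 0.02 and -0.06, and the platelet chemokine Pf4 had 0.16 and -0.14. Cx3cl1 (fractalkine) and Cxcl16, the membrane-bound chemokines, were untested on sums of at most 9 and 11 counts.

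The receptors of these ligands were mostly outside the table. Of 23 chemokine receptors 3 were listed, and none of them was called between treatments. Cx3cr1 had 4, 7, 11 and 23 counts (Input control, Input shGpr151, IP control, IP shGpr151) and was past 1.5-fold higher in IP. It passed the filter on low counts only through its IP shGpr151 columns, at 8, 7 and 8 counts. The filter thus favoured that mark, which is not read as a difference. Cxcr2, the receptor of CXCL2 and a partner of MIF, had 835 and 726 counts in Input but 21 and 20 in IP. Its ratio of IP to Input in control was -6.91 (-7.61 to -6.29), against which the neighbouring values of Cx3cr1, the fractalkine receptor, were -0.14 (-1.89 to 1.97) and of Ackr1, a scavenging receptor of vessels, 0.96 (0.38 to 1.60). Ccr2, the receptor of CCL2, and Cxcr4 were not among the listed genes.

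Around Csf1, 5 of 9 genes of the CSF1 receptor list were in the table, all tested. Il34, which encodes the second ligand of CSF1R, had 78 and 45 counts in Input and 616 and 563 in IP. It was called lower in Input shGpr151, at -0.77 (-1.33 to -0.23), and was not called in IP, at 0.20 (0.03 to 0.36), with a called difference of 0.97 (0.41 to 1.52). Unlike Csf1, Il34 was recovered above the bulk of genes, with an IP to Input ratio of 1.39 (1.04 to 1.74) in control, and the ratio of Csf1 was lower than that of Il34 by -1.34 (-1.88 to -0.81). Counts of Csf1 per count of Il34 were 0.795 in Input control, 1.42 in Input shGpr151, 0.313 in IP control and 0.302 in IP shGpr151. Csf1r itself had 23 and 29 counts in Input and 24 and 36 in IP. Its IP ratio of 0.91 (0.13 to 1.72) was past 1.5-fold but not called. It passed the filter on low counts only with its IP shGpr151 columns, at 10, 11 and 15 counts. The filter thus favoured that mark, which is not read as a difference. Tyrobp, the myeloid adaptor, had 0.09 (-0.04 to 0.23) in Input and -0.43 (-0.83 to -0.03) in IP, and Csf2rb, a shared receptor chain, 0.50 (0.06 to 0.94) and -0.52 (-2.45 to 1.21), none called.

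Around Mif, 8 of 12 genes of the MIF list were in the table, all tested. In IP 3 were called lower, Mif, Txn1 (thioredoxin) at -0.17 (-0.22 to -0.13) and Rps19, a ribosomal protein that binds MIF, at -0.15 (-0.20 to -0.10), and 0 higher, beside 8.69% of all tested genes in either direction. In Input 3 were called higher, Mif, Rps19 at 0.26 (0.24 to 0.28) and the peroxidase Prdx1 at 0.54 (0.50 to 0.58), and 0 lower, beside 17.0%. The list medians were -0.07 in IP and 0.11 in Input. Ddt, the paralog of Mif, which lies 4 protein-coding genes away, had 575 and 588 counts in Input and 641 and 440 in IP. Its ratios were 0.05 (-0.12 to 0.22) in Input and -0.22 (-0.39 to -0.04) in IP, neither called, and Mif differed from Ddt by 0.12 (-0.05 to 0.29) and 0.08 (-0.105 to 0.27). Mif was recovered less than Ddt, with a difference in IP to Input ratio of -1.31 (-1.48 to -1.14) in control. Cd44, the coreceptor that signals with CD74, had an IP to Input ratio of 1.03 (0.82 to 1.24) and Cops5, a cytoplasmic binding partner of MIF, 1.42 (1.17 to 1.68), and neither was called between treatments.

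The genes most like each member over the 4 summed libraries were ranked by the root mean square difference of centred log2 levels, among genes of similar total count. For Csf1 they were Tardbp, Fndc4, Me2, Ccdc47 and Tln1, at 0.028 to 0.041 among 4518 candidates. For Ccl2 they were Ciao2b, Sap18b, Cox16, Snrpd3 and Dynlt1c, at 0.055 to 0.084 among 1434. For Mif they were Rbx1, Rps23, Ubl5, Krtcap2 and Rpl36al, at 0.031 to 0.045 among 355. For Cxcl2 they were Cx3cl1, Fabp4, Zfp933, Stk10 and Lrrc75a, at 0.15 to 0.24 among 784, where counts are too few to read the pattern. No chemokine or cytokine gene was among the 5 nearest to Csf1, Ccl2 or Mif. With 4 libraries, many genes come close to any given one.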

How the data were processed

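RNA was measured in 12 columns, 3 in each of 4 groups, as deposited whole-number counts per gene. Per the labels' protocols, sequencing was by nanopore after cDNA-PCR barcoding, and the submitters' processing notes name minimap2, Salmon, GRCm39 and mm39. No source used here says how shared reads and strand were handled. Symbols matched 9061 of 9073 IDs. The members and lists were chosen with earlier results of these data known.

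Because the columns within each group differed by hardly more than counting noise (chi-square over genes), they were summed. The labels do not say whether columns came from separate animals. Levels have exact Poisson intervals, ratios exact conditional binomial ones, and differences between ratios or genes Wald intervals on counting error. PCR copies are not independent molecules. The fit across genes was edgeR 4.0.16 (R 4.3.3) with filterByExpr at a minimum count of 10 (8312 genes), TMM sizes, 1 mean per group, glmQLFTest and Benjamini-Hochberg adjustment. Its common BCV was 1.22%. Alternatives were RLE sizes, library totals, limma 3.58.1 (voom), DESeq2 1.42.0, a mean count of at least 20 or no filter, a fit of only the groups compared, a block for the replicate number, each column left out, and 1 library per group with an assumed BCV of 10% or 20%. The fit was tested on simulated counts.

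Named genes were the 4 members, Gpr151, every listed gene of the CSF1 receptor, chemokine, chemokine receptor and MIF lists, up to 4 called genes with the largest ratio of each other list, and the 5 genes most like each member, without Riken clones, pseudogenes or predicted models. Marker genes, and pairs of genes compared with each other, were named after their values were seen. Likeness used a prior of 0.5 counts and genes within 3 times the member's total. One listed gene is not reported here. Figures were drawn with matplotlib 3.10.9.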

Additional observations from a re-analysis of the deposited data

Results flagged for a closer look

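For Ccl2 the hairpin ratio differed between IP and Input by -0.77, and for Mif by -0.31, each by edgeR's test of the difference itself over the 12 columns. Among the listed genes around them the same test called lower differences for Hmgb2 (-0.88), Aimp1 (-0.69), Ppia (-0.61), Prdx1 (-0.53), Hmgb1 (-0.49), Rps19 (-0.41), Spp1 (-0.32), Lgals3 (-0.18), Txn1 (-0.13) and Lgals1 (-0.09). It called higher differences for Zfp36 (1.94), Mapk8 (1.32), Il34 (0.97) and Ikbkg (0.56). Over all tested genes 14.2% were called in this difference, in either direction. Zfp36 rests on 21 and 9 counts in Input and 21 and 28 in IP. It passed the filter on low counts only with its IP shGpr151 columns, at 9, 9 and 10 counts, so the filter favoured its higher difference.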

How the results depend on the processing

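The calls of Ccl2 and Mif between treatments, and the absence of a call for Csf1, held with RLE sizes, DESeq2, limma-voom, either count filter, a fit of only the groups compared, and each column left out. Left-out columns moved the difference of Ccl2 between fractions from -0.896 to -0.722, and the Input ratio of Csf1 from -0.183 to 0.409. Deviations from group means had correlations of -0.012 to 0.018 between same-numbered columns of different groups. These deviations are little more than counting noise, so the correlations cannot show whether the replicate numbers pair the columns. The replicate block changed no call of a member and gave 736 calls in IP, 1405 in Input, 5431 and 5540 for IP against Input in control and shGpr151, and 1187 for the difference.

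On library totals Mif in IP was -0.092, not called. IP against Input was then 0.17 for Ccl2 in control, called higher, 0.22 for Cxcl2, and 2.22 and 2.32 for Csf1 in control and shGpr151, called. Levels moved with that scale. On TMM sizes they were 21.1, 22.1, 21.7 and 24.0 CPM for Csf1, 329, 435, 82.0 and 63.7 for Ccl2, 3520, 3970, 523 and 477 for Mif, and 3.06, 1.38, 0.787 and 0.423 for Cxcl2 (Input control, Input shGpr151, IP control, IP shGpr151). On totals they were 9.79, 10.4, 45.5 and 51.7 CPM for Csf1, 153, 205, 172 and 138 for Ccl2, and 1636, 1873, 1097 and 1029 for Mif, with Cxcl2 at 1.65 in IP control. RLE sizes moved Mif in Input shGpr151 to 4078 CPM.

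With edgeR on 1 library per group and an assumed BCV of 10% or 20%, Ccl2 at -0.36 in IP, 0.40 in Input and -0.77 for the difference, and Mif at -0.135, 0.17 and -0.31, were not called. Calls among all genes fell to 1, 85 and 15 for IP, Input and the difference at 10%, and to 0, 2 and 1 at 20%, with 3467 for IP against Input in control. DESeq2 called 443 genes in IP. A mean of at least 20 counts left 87 genes past 1.5-fold in IP, against 280. Depth limits Csf1 in Input and Cxcl2 throughout.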

Other observations

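Spp1 (osteopontin), a secreted phosphoprotein of injured nerve, had 633 and 789 counts in Input control and shGpr151 and 6672 and 5372 in IP. It was called higher in Input, at 0.34 (0.19 to 0.49), and not called in IP, at 0.01 (-0.04 to 0.07).

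Secreted proteins with a second role inside cells, the class Mif belongs to, had 14 of 16 genes tested. In Input 7 were called higher and 2 lower, with a list median of 0.12, and in IP 7 were called lower and 0 higher, with a median of -0.155, Mif among them. Over all tested genes 17.0% were called in Input and 8.69% in IP, and how far the abundance of these genes bears on their calls was not tested. The largest called ratios in IP were those of Hmgb2 at -0.35, S100b at -0.24, Hmgb1 at -0.21 and Ppia (cyclophilin A) at -0.19. In Input they were Aimp1 at 0.66, Prdx1 at 0.54, Hmgb2 at 0.53 and Ppia at 0.42.

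Of 31 injury and inflammatory regulators, among them the kinases, AP-1 and NF-kB factors known to act on Csf1 and Ccl2 genes, 27 were in the table and 25 were tested. In IP 1 was called, Mapk9 at -0.61 (-1.03 to -0.20), and in Input 2, Mapk8 at -0.94 (-1.58 to -0.32) and Ikbkg at -0.35 (-0.41 to -0.29), all lower. These counts are below the shares called over all tested genes, 8.69% in IP and 17.0% in Input. The list medians were 0.01 in IP and -0.22 in Input.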
